A study of Mus musculus with 9 samples.

Results

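The 32 genes described here are Trp53, which encodes the tumour suppressor p53, its regulators, and genes reported as p53 targets for cell cycle arrest, cell death, DNA repair and metabolism. They were chosen by name, as members of the pathway, with earlier results of these data known. They are 32 of the 51717 genes to which the transcript tables could be summed. They were followed in 3 lines of B16F10, a pigmented mouse melanoma cell line grown in culture: a Sirpa overexpression line, a Sirpa knockdown line and a non-target control line. Sirpa encodes an inhibitory cell surface receptor that binds CD47 on neighbouring cells. Each line gave 3 RNA libraries, which the labels call biological repeats. The sources used here do not give the vectors, whether the control carries one of the overexpression kind, or whether each line is a clone. Each condition is 1 line, so every p-value sets a difference against the scatter of repeats within lines, and no second, separately made line was compared. The comparisons ask whether the RNA of the p53 pathway differs with more or less Sirpa.

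p53 is a transcription factor that binds a pair of short half-sites near its target genes, and it is held low in unstressed cells because Mdm2, itself a p53 target, marks it for destruction. When DNA is damaged or growth signals are abnormal, kinases and the product of Cdkn2a release p53 from Mdm2, the protein accumulates, and target RNAs rise with little need for more Trp53 RNA. The targets act in groups: Cdkn1a stops the cell cycle, Bax and Bbc3 open mitochondria in cell death, and others serve DNA repair and metabolism. Only RNA was measured here, so the amount and the modification of the p53 protein are not known from these data.

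The stretches upstream of 4 targets are printed because they are classical p53 responsive genes and each holds the letters of a p53 half-site. They are the 250 bases before the transcription start in the RefSeq table, on build GRCm38.p6, written 5′ to 3′ on the strand of the gene, with capitals marking each match without mismatch to the consensus p53 half-site, which reads the same on both strands. Cdkn1a (chr17:29090729-29090978, plus strand) encodes p21, the inhibitor of cyclin-dependent kinases, and its half-sites begin 73 and 51 bases before the more upstream of its starts. The window of its other start (chr17:29093519-29093768) holds no half-site. Ccng1 (chr11:40755287-40755536, minus strand) encodes cyclin G1, with a half-site 185 bases before the start. Mdm2 (chr10:117710759-117711008, minus strand) has a half-site 186 bases before the start. The best known p53 sites of Mdm2 lie in its first intron, outside this window. Bax (chr7:45466899-45467148, minus strand) encodes a pore-forming protein of the mitochondrial outer membrane, with a half-site 201 bases before the start.
Cdkn1a: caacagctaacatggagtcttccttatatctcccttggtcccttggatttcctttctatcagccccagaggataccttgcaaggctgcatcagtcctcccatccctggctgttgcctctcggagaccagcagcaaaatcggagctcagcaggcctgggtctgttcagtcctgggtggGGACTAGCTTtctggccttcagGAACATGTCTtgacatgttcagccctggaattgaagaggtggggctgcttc
Ccng1: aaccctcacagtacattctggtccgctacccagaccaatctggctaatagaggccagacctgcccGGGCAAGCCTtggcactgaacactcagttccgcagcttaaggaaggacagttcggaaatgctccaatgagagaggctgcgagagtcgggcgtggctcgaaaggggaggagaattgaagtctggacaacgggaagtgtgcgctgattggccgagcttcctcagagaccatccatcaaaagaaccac
Mdm2: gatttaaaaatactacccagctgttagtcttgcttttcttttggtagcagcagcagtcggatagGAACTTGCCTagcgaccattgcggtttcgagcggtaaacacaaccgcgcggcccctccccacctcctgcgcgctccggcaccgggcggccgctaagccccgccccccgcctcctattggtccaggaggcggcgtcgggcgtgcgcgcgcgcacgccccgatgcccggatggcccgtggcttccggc
Bax: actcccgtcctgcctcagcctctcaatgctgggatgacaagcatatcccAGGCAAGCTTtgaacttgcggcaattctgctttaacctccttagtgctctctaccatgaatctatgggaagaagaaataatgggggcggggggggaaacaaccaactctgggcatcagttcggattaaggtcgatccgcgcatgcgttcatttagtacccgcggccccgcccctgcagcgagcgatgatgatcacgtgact

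RefSeq windows were matched for 24 of the 32 members, 34 windows in all, and 10 of those windows, each from a different member, hold at least 1 half-site. Of all 32817 windows of this length in the table, 7.12% hold one. The 10 members are Trp53, Mdm2, Ppm1d, Cdkn1a, Ccng1, Bax, Aen, Ei24, Polk and Sesn1. Some members that rose in a perturbed line and some that passed no test are among them. Other members that rose, such as Btg2 and Phlda3, had no half-site in their windows. The printed window of Cdkn1a is the only member window with a full site, which 0.064% of all windows hold. A full site is defined here as 2 half-sites without mismatch at most 13 bases apart. The 10 bases right after the Cdkn1a half-site nearer the start, tgacatgttc, differ from the consensus in their first letter. They were therefore not counted or marked. A match of letters is a description and not a measured binding site. No window was matched for Pmaip1, Ddb2, Rrm2b, Zmat3, Xpc, Perp, Trp53inp1 and Tnfrsf10b.

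The libraries held 16.4 to 22.4 times 1000000 estimated counts each. Levels are given as CPM, counts per 1000000 after normalisation for library composition (TMM), and a gene was called higher or lower when edgeR's quasi-likelihood test gave a Benjamini-Hochberg adjusted p under 0.05 over the 13064 genes tested. Sirpa itself stood at 895, 898 and 914 CPM in the overexpression libraries, 118, 112 and 115 CPM in the knockdown libraries and 292, 289 and 303 CPM in the control libraries, which fits the labels. All 7 melanocyte and melanoma markers were detected, Pmel, Dct and Tyrp1 at 3222 CPM or more in every library, while none of the 6 leukocyte or 4 endothelial markers reached the minimum count for testing. The leukocyte markers Ptprc, Cd3e and Adgre1, the endothelial Cdh5 and Kdr and the epithelial Epcam, Krt8 and Krt18 had 0 counts in all libraries. The remaining marker of the 4 epithelial ones, Cdh1, was detected and tested, and was not called against the control. The epithelial sum was 0.824 to 0.917 CPM in the overexpression libraries, 0.119 to 1.155 CPM in the knockdown libraries and 0.887 to 2.06 CPM in the control libraries. Of 5 fibroblast markers 3 were tested, none was at 0 throughout, and their sum was 73.6 to 83.1 CPM in the overexpression libraries, 17.02 to 18.8 CPM in the knockdown libraries and 63.7 to 66.7 CPM in the control libraries. Col1a1, a collagen gene, averaged 66.5 ± 3.53 CPM in the overexpression line, 4.95 ± 0.702 CPM in the knockdown line and 55.6 ± 2.45 CPM in the control line (SD, n = 3 each). Of the 7 melanocyte markers, 2 (28.6%) were called higher and 2 (28.6%) lower in the overexpression line than in the control line, against 13.1% higher and 11.1% lower among all genes tested. In the knockdown line 1 (14.3%) was called higher and 4 (57.1%) lower, against 18.0% and 17.4% of all genes tested. Whether these differences between the lines have a part in the p53 results was not tested. In bulk RNA, fewer cells with a transcript and less of it per cell cannot be told apart.

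In both perturbed lines the RNA of many p53 target genes was higher than in the control line, while that of Trp53 itself was not called. In the knockdown line 16 of the 29 members tested (55.2%) were called higher than in the control line and 0 lower, against 18.0% higher and 17.4% lower among all genes tested. In the overexpression line 13 of 29 (44.8%) were called higher and 0 lower, against 13.1% higher and 11.1% lower among all genes tested. At an unadjusted p under 0.05 edgeR gave 2 members lower in the overexpression line, Mdm4 and Apaf1, and 0 in the knockdown line; DESeq2 and limma-voom called 0 lower in either. Without control replicate 1, edgeR called Apaf1 lower in the overexpression line and Ei24 lower in the knockdown line. The median log2 fold change of the tested members was 0.29 in the overexpression line and 0.29 in the knockdown line, against medians of -0.001 and -0.008 over all genes. The 3 libraries of the overexpression line lay all above those of the control line for 16 of the 29 members and all below for 3, against 20.7% and 19.7% of all genes, and those of the knockdown line lay all above for 18 and all below for 0, against 22.8% and 23.0%. The members all below in the overexpression line were Mdm4, Ppm1d and Gdf15. Both comparisons use the same 3 control libraries and are not independent. The members called higher in both lines were 11 (37.9%), against 8.74% of all genes tested: Mdm2, Cdkn1a, Ccng1, Btg2, Plk2, Gtse1, Tnfrsf10b, Eda2r, Trp53inp1, Zmat3 and Phlda3. Those called lower in both were 0, against 6.66% of all genes tested. Since the control libraries are shared and the members were chosen with earlier results known, these counts are given as a description.

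**Figure D1:**
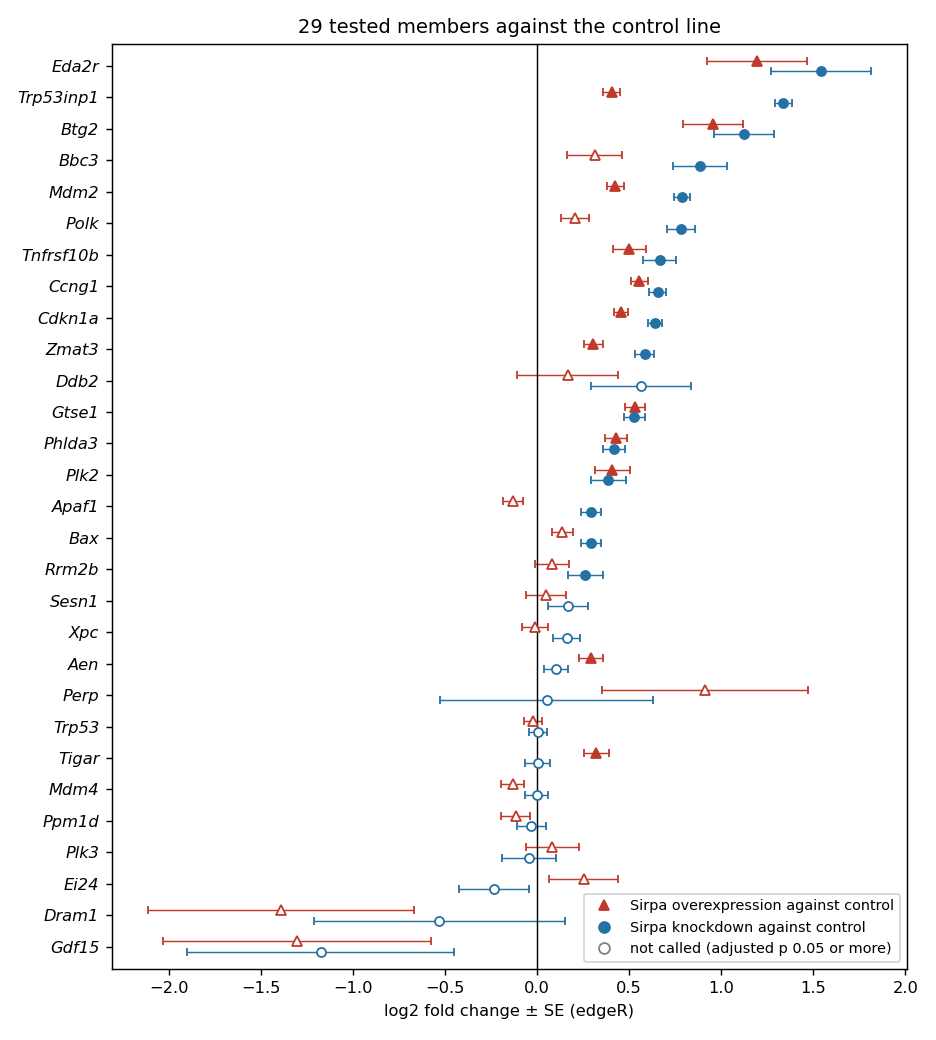
Log2 fold change ± SE of the 29 tested members in the Sirpa overexpression line (red triangles) and the Sirpa knockdown line (blue circles) against the control line, from edgeR; filled symbols were called and open ones were not. All filled symbols lie right of 0, 13 for overexpression and 16 for knockdown, and Eda2r, Trp53inp1 and Btg2 lie farthest right in the knockdown line.

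The minimum count for testing was missed by 3 members, for which no change is given. Cdkn2a, whose Arf product binds Mdm2 and frees p53, had 0 counts in all 9 libraries, and a count of 0 allows up to 3 counts, or 0.135 to 0.184 CPM depending on the library. Pmaip1, which encodes the death activator Noxa, likewise had 0 counts in all 9 libraries. Fas, a death receptor of the cell surface, had 13 counts over the 3 overexpression libraries summed, against 15 in the knockdown and 9 in the control libraries.

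Of p53 and its regulators, Mdm2 was the only member called in any comparison. It was 1 of 4 tested (25%) called higher in each perturbed line, against 13.1% of all genes for overexpression and 18.0% for knockdown. Trp53 stood at 152, 158 and 161 CPM in the overexpression libraries, 151, 166 and 164 CPM in the knockdown libraries and 167, 152 and 159.9 CPM in the control libraries. The 3 sets of values overlap, and the log2 fold changes against the control of -0.023 ± 0.050 for overexpression (adjusted p = 0.8, edgeR) and 0.005 ± 0.050 for knockdown (adjusted p = 0.954) do not show that the levels were equal. Mdm2, the ubiquitin ligase that destroys p53, stood at 179, 189.8 and 180.3 CPM in the overexpression libraries, 245, 225 and 234 CPM in the knockdown libraries and 134, 137 and 137 CPM in the control libraries. The 3 lines did not overlap, with the knockdown libraries highest and the control libraries lowest. The fold over the control was 1.343 in the overexpression line (log2 0.43 ± 0.045, adjusted p = 4.18e-06, edgeR) and 1.72 in the knockdown line (log2 0.79 ± 0.045, adjusted p = 1.94e-09). Mdm4, a relative of Mdm2 that blocks p53 activity, averaged 74.9 ± 5.31 CPM in the overexpression line, 81.96 ± 2.13 CPM in the knockdown line and 82.1 ± 1.78 CPM in the control line and was not called. Ppm1d, a phosphatase that ends p53 signalling, is known as a p53 target. It averaged 29.3 ± 1.96, 31.04 ± 0.650 and 31.8 ± 0.770 CPM in the overexpression, knockdown and control lines and was not called either. For Mdm4 and for Ppm1d the overexpression libraries all lay below the control libraries.

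Genes listed under arrest were the group with the largest share of called members. The same 5 of 6 (83.3%) were higher in each perturbed line, against 13.1% of all genes tested for overexpression and 18.0% for knockdown. Plk3 was not called in either line. The list groups reported p53 targets and does not show that each of them stops the cell cycle. Cdkn1a, encoding p21, stood at 339.8, 324 and 323 CPM in the overexpression libraries, 384, 370.5 and 368 CPM in the knockdown libraries and 238, 245 and 238 CPM in the control libraries. Every perturbed library exceeded every control library, by 1.37-fold in the mean of the overexpression line (log2 0.45 ± 0.039, adjusted p = 3.95e-07, edgeR) and 1.56-fold in that of the knockdown line (log2 0.64 ± 0.039, adjusted p = 3.64e-09). Ccng1, whose cyclin G1 recruits a phosphatase to Mdm2, stood at 531, 562 and 535 CPM in the overexpression libraries, 601, 542 and 603 CPM in the knockdown libraries and 361, 365 and 383 CPM in the control libraries. The control libraries were again below all others, while the overexpression and knockdown libraries overlapped. Its log2 fold change was 0.55 ± 0.046 in the overexpression line (adjusted p = 2.86e-07, edgeR) and 0.66 ± 0.046 in the knockdown line (adjusted p = 2.01e-08). Gtse1, which in human cells carries p53 out of the nucleus after DNA damage, stood at 141, 149.6 and 153 CPM in the overexpression libraries, 145, 139 and 157 CPM in the knockdown libraries and 106, 98.5 and 102 CPM in the control libraries. Both perturbed lines lay above the control line without overlap, at log2 0.53 ± 0.055 for overexpression (adjusted p = 3.34e-06, edgeR) and 0.53 ± 0.055 for knockdown (adjusted p = 1.68e-06).

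The other genes of the arrest list were expressed at lower levels, per length as well. Btg2, an antiproliferative gene that promotes the decay of mRNA, stood at 18.4, 15.9 and 12.4 CPM in the overexpression libraries, 19.9, 16.8 and 15.7 CPM in the knockdown libraries and 7.97, 6.85 and 9.27 CPM in the control libraries. The control libraries were the lowest, and the change was among the largest of the members, 1.94-fold in the overexpression line (log2 0.96 ± 0.162, adjusted p = 0.000426, edgeR) and 2.18-fold in the knockdown line (log2 1.12 ± 0.162, adjusted p = 5.13e-05). Plk2, a stress-responsive polo-like kinase, stood at 31.03, 33.3 and 38.2 CPM in the overexpression libraries, 33.05, 35.8 and 32.1 CPM in the knockdown libraries and 23.5, 26.2 and 27.3 CPM in the control libraries. It did not overlap with the control in either line, with log2 fold changes of 0.41 ± 0.095 for overexpression (adjusted p = 0.00475, edgeR) and 0.39 ± 0.095 for knockdown (adjusted p = 0.00429). Its relative Plk3 averaged 9.70 ± 0.150 CPM in the overexpression line, 8.87 ± 0.988 CPM in the knockdown line and 9.16 ± 0.428 CPM in the control line and was not called.

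**Figure D2:**
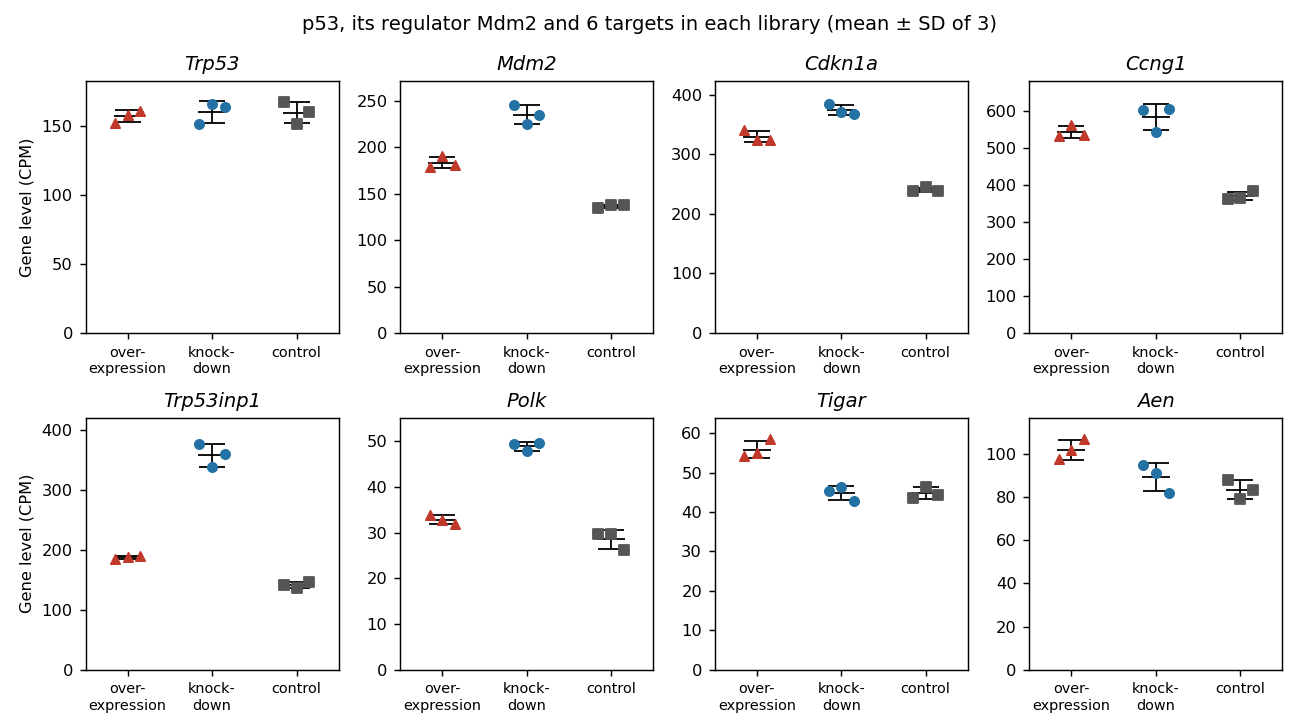
Level in CPM of Trp53, Mdm2 and 6 targets in each of the 9 libraries (overexpression red triangles, knockdown blue circles, control grey squares), with bars for the mean ± SD of 3. Trp53 overlaps in all lines at 151 to 167 CPM, Mdm2, Cdkn1a, Ccng1 and Trp53inp1 are lowest in the control libraries, Polk is highest in the knockdown libraries, and Tigar and Aen are highest in the overexpression libraries.

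Cell death genes held both the largest rises and several members at the edge of detection. Of the 12 tested, 6 (50%) were called higher in the overexpression line, against 13.1% of all genes tested, and 8 (66.7%) in the knockdown line, against 18.0%. Trp53inp1, a stress protein that binds p53-activating kinases and acts in autophagy, stood at 185, 188 and 189 CPM in the overexpression libraries, 376, 337 and 360.1 CPM in the knockdown libraries and 141, 137 and 147 CPM in the control libraries. The knockdown libraries were far above the other 2 lines, and the overexpression libraries lay between without overlap. The fold over the control was 1.32 in the overexpression line (log2 0.40 ± 0.047, adjusted p = 1.01e-05, edgeR) and 2.53 in the knockdown line (log2 1.338 ± 0.047, adjusted p = 4.57e-12), where Trp53inp1 ranked 12 by p among all genes tested. Eda2r, a death receptor of the tumour necrosis factor receptor family, had the largest fold change of the called members at a low level, with 4.53, 3.77 and 4.64 CPM in the overexpression libraries, 5.46, 4.70 and 6.32 CPM in the knockdown libraries and 2.33, 1.39 and 1.92 CPM in the control libraries. No library of either perturbed line reached down to the control values, at 2.29-fold for overexpression (log2 1.19 ± 0.272, adjusted p = 0.00421, edgeR) and 2.91-fold for knockdown (log2 1.54 ± 0.271, adjusted p = 0.000323). The call in the overexpression line was lost when counts were corrected for effective transcript length (adjusted p = 0.0974, edgeR).

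The second death receptor tested was higher in both lines too. Tnfrsf10b, the mouse receptor for the ligand TRAIL, stood at 29.05, 31.4 and 32.6 CPM in the overexpression libraries, 37.8, 34.5 and 31.8 CPM in the knockdown libraries and 22.1, 20.98 and 22.7 CPM in the control libraries. The control libraries were below all others, at log2 fold changes of 0.50 ± 0.089 for overexpression (adjusted p = 0.000651, edgeR) and 0.67 ± 0.089 for knockdown (adjusted p = 2.49e-05). Zmat3, an RNA-binding protein that regulates splicing and mRNA stability, stood at 184, 176 and 192 CPM in the overexpression libraries, 217, 217 and 237 CPM in the knockdown libraries and 156, 142 and 149 CPM in the control libraries. The lines were ordered knockdown, overexpression, control with no overlap, with log2 fold changes over the control of 0.30 ± 0.051 for overexpression (adjusted p = 0.000391, edgeR) and 0.58 ± 0.051 for knockdown (adjusted p = 2.47e-07). Phlda3, which competes with the survival kinase Akt for membrane lipids, stood at 136, 144 and 145 CPM in the overexpression libraries, 132, 146 and 144 CPM in the knockdown libraries and 99.02, 114 and 103 CPM in the control libraries. Its rise was of like size in the lines, at log2 0.43 ± 0.059 for overexpression (adjusted p = 6.58e-05, edgeR) and 0.42 ± 0.060 for knockdown (adjusted p = 4.32e-05).

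The mitochondrial death genes Bbc3, Bax and Apaf1 were called higher in the knockdown line and were not called in the overexpression line. The perturbed lines differed by the test for Bbc3 and Apaf1, with values given further on, and not for Bax. Bbc3, encoding the BH3-only activator PUMA, stood at 15.3, 19.6 and 13.01 CPM in the overexpression libraries, 26.5, 24.04 and 20.4 CPM in the knockdown libraries and 12.4, 11.6 and 14.4 CPM in the control libraries. The knockdown libraries were above all others, and the overexpression and control libraries overlapped. The log2 fold change was 0.31 ± 0.150 for overexpression (adjusted p = 0.149, edgeR), which was called only with the length correction (adjusted p = 0.0248), and 0.88 ± 0.148 for knockdown (adjusted p = 0.000214). Bax stood at 159, 156 and 166 CPM in the overexpression libraries, 182, 192 and 162 CPM in the knockdown libraries and 149, 144 and 145 CPM in the control libraries. All perturbed libraries exceeded the control libraries, by log2 0.14 ± 0.056 in the overexpression line (adjusted p = 0.0912, edgeR) and 0.29 ± 0.056 in the knockdown line (adjusted p = 0.000623), and the perturbed lines overlapped with each other. Bax in the overexpression line was called in 3 of 18 alternative settings, without knockdown replicate 2 (adjusted p = 0.0464, edgeR) or 3 (0.0395) and in the fit to 2 lines (0.0226). Between overexpression and knockdown its log2 fold change was -0.16 ± 0.055 (adjusted p = 0.0531, edgeR), which was called in 5 of 18 alternative settings (adjusted p = 0.00391 to 0.0479), the lowest without knockdown replicate 3. Apaf1, the scaffold of the caspase-activating apoptosome, stood at 108, 107 and 109 CPM in the overexpression libraries, 150.3, 139 and 146 CPM in the knockdown libraries and 109, 121 and 125 CPM in the control libraries. It was highest in the knockdown libraries without overlap, at log2 0.29 ± 0.055 over the control (adjusted p = 0.000503, edgeR), against -0.13 ± 0.055 for overexpression (adjusted p = 0.0968).

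Aen, a nuclease that degrades DNA in dying cells, was highest in the other perturbed line. It stood at 97.4, 102 and 107 CPM in the overexpression libraries, 94.7, 90.9 and 82.1 CPM in the knockdown libraries and 87.9, 79.1 and 83.1 CPM in the control libraries. The overexpression libraries were the highest, by log2 0.29 ± 0.065 over the control (adjusted p = 0.00395, edgeR), against 0.10 ± 0.066 for knockdown (adjusted p = 0.264). With the length correction the adjusted p for overexpression was 0.0723. Ei24, a membrane protein of the endoplasmic reticulum, averaged 15.3 ± 0.594 CPM in the overexpression line, 10.95 ± 1.29 CPM in the knockdown line and 12.8 ± 4.22 CPM in the control line and was not called. Perp, a membrane protein of cell junctions, had 65 counts over the 3 overexpression libraries, 36 over the knockdown libraries and 34 over the control libraries. Dram1, a lysosomal membrane protein of autophagy, had 17, 32 and 44 counts over the overexpression, knockdown and control libraries. Neither gene passed the test, and with standard errors of 0.561 to 0.722 against the control a rise of the size of that of Mdm2 was not detectable at this depth.

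DNA repair genes were called higher in the overexpression line for 0 of 4 members, against 13.1% of all genes tested, and in the knockdown line for 2 of 4 (50%), against 18.0%. In the overexpression line edgeR gave 1, Polk, at an unadjusted p under 0.05, DESeq2 and limma-voom called 0, and the length correction called Polk (adjusted p = 0.0455). Polk, a polymerase that copies past damaged bases, stood at 33.8, 32.7 and 31.9 CPM in the overexpression libraries, 49.3, 47.7 and 49.5 CPM in the knockdown libraries and 29.7, 29.7 and 26.1 CPM in the control libraries. The knockdown libraries stood clear of both other lines, at 1.72-fold the control (log2 0.78 ± 0.076, adjusted p = 7.89e-07, edgeR), against log2 0.21 ± 0.077 for overexpression (adjusted p = 0.0646). Rrm2b, a ribonucleotide reductase subunit that supplies nucleotides for repair, stood at 25.04, 28.5 and 28.2 CPM in the overexpression libraries, 29.5, 30.3 and 32.9 CPM in the knockdown libraries and 23.04, 26.4 and 27.7 CPM in the control libraries. The knockdown libraries all exceeded the control libraries, by log2 0.26 ± 0.094 (adjusted p = 0.0395, edgeR), but the call was lost in 8 of 18 alternative settings, among them leaving out control replicate 1 (adjusted p = 0.165), control replicate 2 (0.0634), knockdown replicate 2 (0.0579) or knockdown replicate 3 (0.136). With the length correction the sign turned, to log2 -0.13 (adjusted p = 0.787). Xpc and Ddb2, which recognise damage for nucleotide excision repair, were not called. For both, the knockdown libraries all lay above the control libraries, while the overexpression and control libraries overlapped. The log2 fold change for knockdown was 0.16 ± 0.071 for Xpc (adjusted p = 0.0947, edgeR) and 0.56 ± 0.271 for Ddb2 (adjusted p = 0.121). Xpc averaged 40.4 ± 0.392 CPM in the overexpression line, 45.5 ± 1.52 CPM in the knockdown line and 40.8 ± 2.80 CPM in the control line. Ddb2 averaged 4.22 ± 0.886 CPM in the overexpression line, 5.55 ± 0.573 CPM in the knockdown line and 3.74 ± 1.23 CPM in the control line.

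Of the metabolic and secreted members, Tigar was called and only in the overexpression line. Tigar, an enzyme that slows glycolysis in favour of the pentose phosphate pathway, stood at 54.1, 55.02 and 58.4 CPM in the overexpression libraries, 45.3, 46.4 and 42.7 CPM in the knockdown libraries and 43.4, 46.4 and 44.4 CPM in the control libraries. The overexpression libraries were above all others, at log2 0.32 ± 0.068 over the control (adjusted p = 0.00251, edgeR), while knockdown and control overlapped, at log2 0.002 ± 0.068 (adjusted p = 0.985). Sesn1, a sestrin that restrains mTORC1, averaged 24.8 ± 2.97 CPM in the overexpression line, 26.9 ± 2.75 CPM in the knockdown line and 23.96 ± 1.99 CPM in the control line and was not called. Gdf15, a secreted stress cytokine, had 17 counts over the overexpression libraries, 18 over the knockdown libraries and 41 over the control libraries. Its log2 fold changes of -1.31 ± 0.730 for overexpression and -1.18 ± 0.726 for knockdown did not pass the test (adjusted p = 0.222 and 0.231, edgeR). In CPM its overexpression libraries all lay below the control libraries.

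Set against each other, the perturbed lines differed in 9 of the 29 tested members: 2 were called higher in the overexpression line than in the knockdown line (6.9%, against 11.0% of all genes) and 7 lower (24.1%, against 11.1% of all genes). The 7 lower in overexpression were Mdm2, Cdkn1a, Trp53inp1, Bbc3, Zmat3, Apaf1 and Polk, and the 2 higher were Aen and Tigar. The largest difference was that of Trp53inp1, at log2 -0.94 ± 0.046 for overexpression against knockdown (adjusted p = 6.5e-10, edgeR). Polk followed at -0.58 ± 0.075 (adjusted p = 3.91e-05), Bbc3 at -0.57 ± 0.146 (adjusted p = 0.00972) and Apaf1 at -0.43 ± 0.055 (adjusted p = 3.37e-05). Mdm2, Cdkn1a and Zmat3 exceeded the control in both lines and were lower under overexpression than under knockdown, Mdm2 at log2 -0.36 ± 0.044, Zmat3 at -0.28 ± 0.050 and Cdkn1a at -0.18 ± 0.038 (adjusted p = 2.18e-05, 0.000766 and 0.00241, edgeR). Tigar was higher by 0.32 ± 0.067 (adjusted p = 0.00277, edgeR) and Aen by 0.19 ± 0.065 (adjusted p = 0.0462). The call of Aen was lost in 12 of 18 alternative settings, among them leaving out any 1 library but knockdown replicate 1 (adjusted p = 0.0503 to 0.196). That of Bbc3 was lost with the length correction (log2 -0.26, adjusted p = 0.339), without knockdown replicate 1 (adjusted p = 0.0519) and without overexpression replicate 3 (adjusted p = 0.0522), and that of Polk with the length correction (log2 -0.30, adjusted p = 0.147). For Ccng1, Btg2, Plk2, Gtse1, Tnfrsf10b, Eda2r and Phlda3 the perturbed lines did not differ by the test, the estimates running from -0.35 ± 0.256 for Eda2r to 0.021 ± 0.093 for Plk2, which does not show that they were equal. Ccng1 was called lower in the overexpression line without knockdown replicate 2 (log2 -0.15, adjusted p = 0.0137, edgeR), against -0.10 ± 0.045 with all libraries (adjusted p = 0.129). Ei24, at 0.48 ± 0.189 for overexpression against knockdown (adjusted p = 0.0791, edgeR), was called higher in 4 of 18 alternative settings (adjusted p = 0.0163 to 0.047), among them leaving out control replicate 1 or 3.

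**Figure D3:**
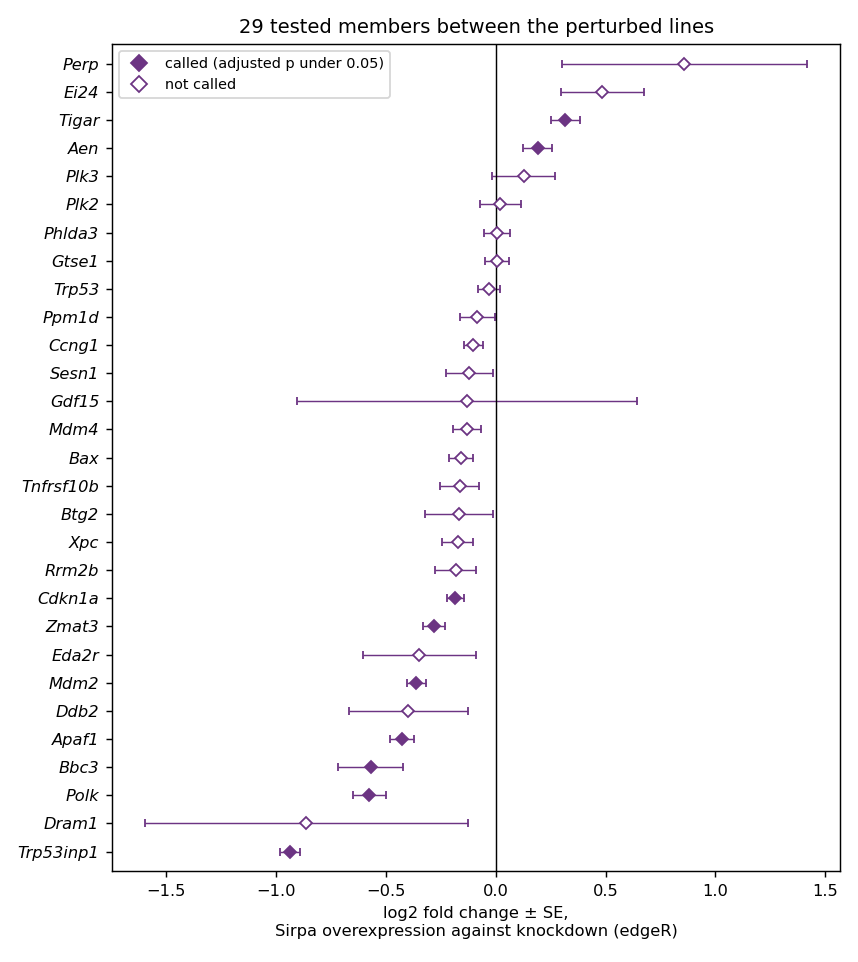
Log2 fold change ± SE of the 29 tested members in the Sirpa overexpression line against the Sirpa knockdown line, from edgeR; filled diamonds were called and open ones were not. Trp53inp1 lies farthest left among the called members, at -0.94, and Tigar and Aen are the 2 called members right of 0.

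Levels of different genes can be compared only per length, in TPM, transcripts per 1000000. By the control line, Bax was the most abundant member at 322 ± 1.86 TPM, followed by Cdkn1a at 214 ± 4.08 and Ccng1 at 155 ± 4.75 TPM (SD, n = 3 each). Trp53 came next at 145 ± 7.13 TPM, with ranges of mean ± SD that overlap those of Ccng1, and stood above Phlda3 at 124 ± 9.11 TPM and Mdm2 at 96.9 ± 2.18 TPM. In the knockdown line Bax, at 406 ± 39.6 TPM, and Cdkn1a, at 343 ± 4.51 TPM, were the highest. There Mdm2 reached 161 ± 8.25 TPM, against 152 ± 8.97 TPM for Trp53, with ranges of mean ± SD that overlap. In knockdown replicate 3 Mdm2 was the lower of them, at 155 against 158 TPM. The protein-coding Mdm2-201 held 88.3% ± 1.41 of the estimated counts of Mdm2 in that line but 65.2% ± 3.26 of its TPM. It stood at 109, 99.6 and 107 TPM in the knockdown libraries, so the higher mean of Mdm2 than of Trp53 there rests on other transcripts of Mdm2. In the overexpression line the TPM of Mdm2 was 130.5 ± 0.704, against 147 ± 6.24 for Trp53. At the other end, Eda2r, Perp, Dram1, Gdf15 and Fas were under 1 TPM in the mean of the control line. The TPM of Bbc3 was 23.6 ± 2.09 in the overexpression line, 28.5 ± 2.18 in the knockdown line and 14.5 ± 3.04 in the control line, so that per length its overexpression libraries lay above the control libraries, which in CPM they did not.

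**Figure D4:**
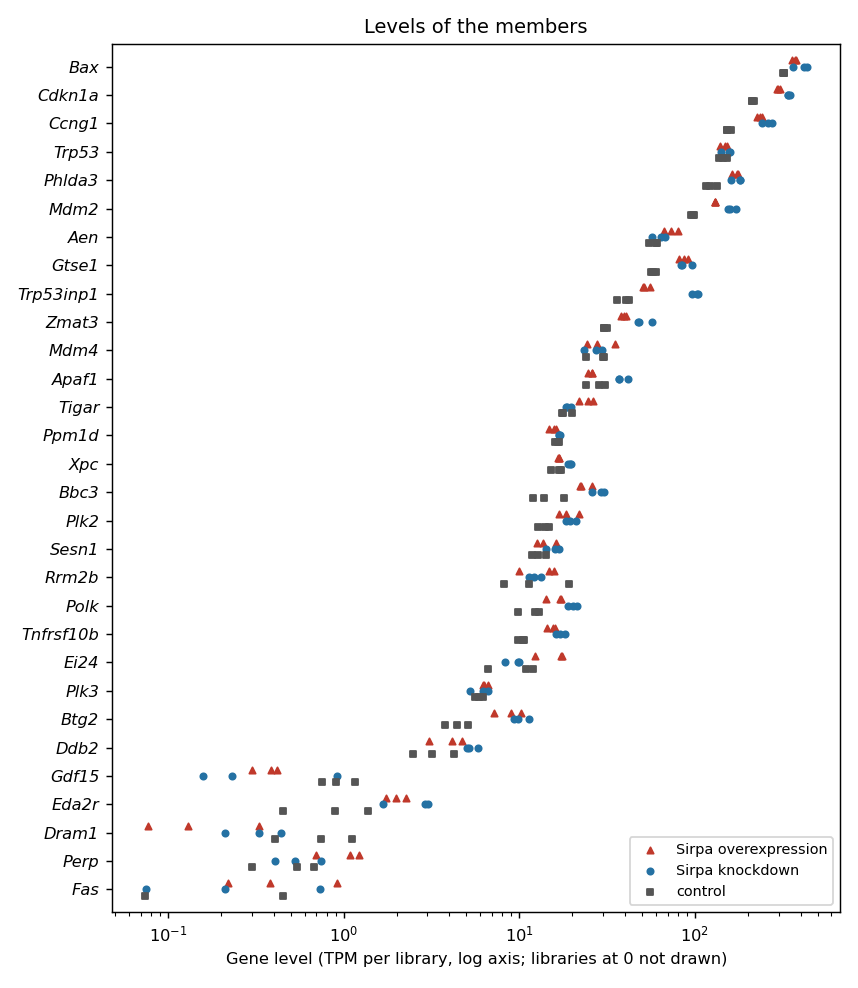
Level of each member in TPM per library on a log axis (overexpression red triangles, knockdown blue circles, control grey squares), ordered by level; libraries at 0 are not drawn, so Cdkn2a and Pmaip1 are absent. Bax, Cdkn1a and Ccng1 are at the top, and the spread between the libraries drawn is widest for Dram1, Fas and Gdf15, which rest on few counts.

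Among transcripts of the tested members, 54 of 20 genes reached a mean share of 10% of their gene's TPM in some line where a second transcript did too, and the mean share of 24 of them differed by over 10 percentage points between lines. Among these were transcripts of Dram1 and Gdf15, genes with 17 to 44 counts per line. The shares of Dram1-201 and Gdf15-202 ran from 0% to 100% within the overexpression line. Shares of transcripts are estimates from shared reads, 3 libraries against 3 cannot pass an exact test below 0.10, and none was tested. Trp53-201, Trp53-202, Trp53-203 and Trp53-205 were detected in all 9 libraries, and Trp53-204 in overexpression replicate 2 alone, at 2.54% of Trp53. The share of Trp53-203 was 60.6% ± 14.6 in the overexpression line, 59.9% ± 9.77 in the knockdown line and 58.5% ± 13.9 in the control line (SD, n = 3 each), with a spread between libraries larger than that between lines. Cdkn1a-201 held 90.4% ± 0.618 of Cdkn1a in the overexpression line, 92.0% ± 0.695 in the knockdown line and 89.1% ± 1.17 in the control line. Polk-201 held 52.3%, 71.1% and 56.2% of Polk in the overexpression libraries, 82.1%, 88.4% and 80.5% in the knockdown libraries and 77.0%, 66.5% and 85.2% in the control libraries. The overexpression libraries were below the knockdown libraries and overlapped with the control libraries. Ei24-207 held 14.9%, 37.3% and 33.1% of Ei24 in the overexpression libraries and 0% in all 3 knockdown and all 3 control libraries, and by estimated counts its share in the overexpression line was 7.50% ± 4.10. Mdm4-214, annotated as a target of nonsense-mediated decay, held 19.8% ± 1.36 of Mdm4 in the overexpression line, 27.6% ± 4.32 in the knockdown line and 16.6% ± 3.08 in the control line. The knockdown libraries were above all others for this transcript of Mdm4. By estimated counts its share was 13.7% ± 1.64 in the overexpression line, 15.99% ± 4.16 in the knockdown line and 10.7% ± 3.04 in the control line, with ranges of mean ± SD that overlap.

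Some members share sequence with another annotated gene, so that part of their reads could belong to either. The share of their 31-base words that another gene also holds was 20.6% for Ddb2, which overlaps Acp2 on the opposite strand, 14.4% for Rrm2b, 13.8% for Mdm4, which has the pseudogene Mdm4-ps, 11.4% for Tnfrsf10b, 11.1% for Bax, 10.2% for Trp53, which has the pseudogene Trp53-ps, 9.78% for Cdkn1a and 9.03% for Ei24. Reads of opposite genes in an overlap cannot be told apart, since the libraries are non-directional.

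Beyond the members, 35 other genes reported as p53 targets, also chosen with earlier results of these data known, were followed, and 33 were tested. Of these 13 (39.4%) were called higher and 1 (3.03%) lower in the overexpression line, against 13.1% and 11.1% of all genes tested. In the knockdown line 16 (48.5%) were called higher and 2 (6.06%) lower, against 18.0% and 17.4%. Their median log2 fold changes were 0.13 in the overexpression line and 0.21 in the knockdown line. Rap2b, a small GTPase, stood at 242, 253 and 253 CPM in the overexpression libraries, 268, 264 and 246 CPM in the knockdown libraries and 123, 138 and 130.4 CPM in the control libraries. Both perturbed lines were above the control without overlap, at log2 0.94 ± 0.049 for overexpression (adjusted p = 1.62e-09, edgeR) and 0.99 ± 0.049 for knockdown (adjusted p = 3.31e-10), although 57.8% of its 31-base words are shared with another annotated gene. Ephx1, an epoxide hydrolase of detoxification, rose by log2 0.47 ± 0.040 in the overexpression line (adjusted p = 4.08e-07, edgeR) and 0.50 ± 0.040 in the knockdown line (adjusted p = 9.66e-08). Psrc1, a microtubule-binding protein of the mitotic spindle, rose by 0.49 ± 0.054 in the overexpression line (adjusted p = 6.24e-06, edgeR) and 0.63 ± 0.054 in the knockdown line (adjusted p = 2.08e-07). Tob1, an antiproliferative relative of Btg2, rose by 0.50 ± 0.066 in the overexpression line (adjusted p = 4.45e-05, edgeR) and by 0.70 ± 0.066 in the knockdown line (adjusted p = 6.1e-07). Traf4, a signalling adaptor, went against the list in the knockdown line, with 235, 241 and 238 CPM in the overexpression libraries, 126, 136 and 136 CPM in the knockdown libraries and 212, 215 and 224 CPM in the control libraries. The knockdown libraries were far below both other lines, at log2 -0.71 ± 0.044 (adjusted p = 4.2e-09, edgeR), against 0.13 ± 0.043 for overexpression (adjusted p = 0.0325), where the call was lost without any 1 of control replicates 1 and 2 or the overexpression replicates (adjusted p = 0.0713 to 0.119).

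**Figure D5:**
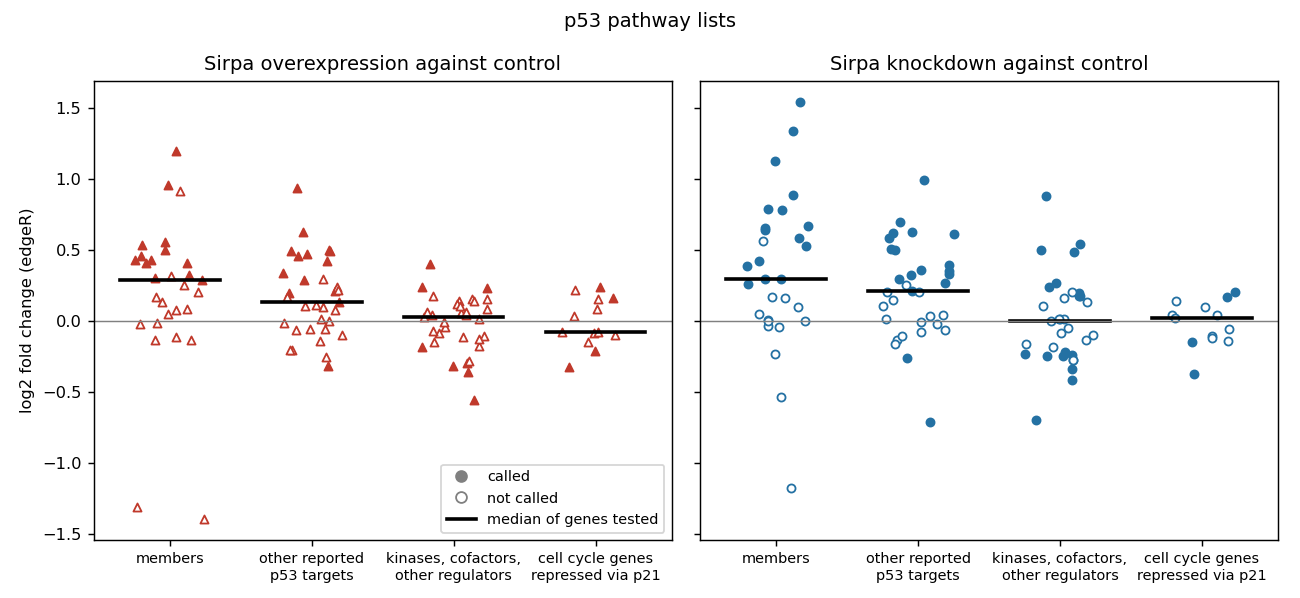
Log2 fold change of the tested members and of 3 other p53 pathway lists in the overexpression line (left) and the knockdown line (right) against the control line, from edgeR; each symbol is a gene, filled where called, and black lines are medians. The medians of the members lie at 0.29 in both panels and those of the other reported targets at 0.13 and 0.21, while the medians of the regulators and of the cell cycle genes lie within 0.1 of 0.

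Among genes that act on p53, called members went both ways. Of 36 kinases, cofactors and other regulators 33 were tested. In the overexpression line 3 (9.09%) were called higher and 5 (15.2%) lower, near the 13.1% and 11.1% of all genes tested. In the knockdown line 9 (27.3%) were called higher and 9 (27.3%) lower, against 18.0% and 17.4%. Hipk2, a kinase that phosphorylates p53 for cell death, stood at 96.9, 88.7 and 99.4 CPM in the overexpression libraries, 125, 139 and 134 CPM in the knockdown libraries and 67.03, 73.9 and 75.1 CPM in the control libraries. The lines were ordered knockdown, overexpression, control without overlap, at log2 0.40 ± 0.064 for overexpression (adjusted p = 0.00026, edgeR) and 0.88 ± 0.064 for knockdown (adjusted p = 3.13e-08). In the knockdown line Atm and Prkdc, kinases of the DNA damage response, rose by log2 0.50 ± 0.069 (adjusted p = 3.43e-05, edgeR) and 0.49 ± 0.080 (adjusted p = 0.000186), against 0.15 ± 0.070 (adjusted p = 0.128) and -0.17 ± 0.082 (adjusted p = 0.142) in the overexpression line. The acetyltransferase Kat2b rose in both lines, by 0.23 ± 0.069 in the overexpression line (adjusted p = 0.0241, edgeR) and 0.54 ± 0.069 in the knockdown line (adjusted p = 1.59e-05). Its call in the overexpression line was lost without control replicate 1 or 3 or overexpression replicate 1 or 2 (adjusted p = 0.0608 to 0.0894). The deacetylase Sirt1 was lower in both lines, at -0.56 ± 0.116 in the overexpression line (adjusted p = 0.00221, edgeR) and -0.70 ± 0.117 in the knockdown line (adjusted p = 0.000209). The deacetylase Hdac1 was higher in both, at 0.24 ± 0.053 in the overexpression line (adjusted p = 0.00348, edgeR) and 0.27 ± 0.053 in the knockdown line (adjusted p = 0.000986). The ribosomal protein Rpl5, which binds Mdm2, was lower in both, at -0.36 ± 0.080 in the overexpression line (adjusted p = 0.00327, edgeR) and -0.42 ± 0.080 in the knockdown line (adjusted p = 0.00069). Hdac1 shares 40.0% and Rpl5 50.4% of its 31-base words with another annotated gene, and the calls of Rpl5 were lost with the length correction (adjusted p = 0.147 for overexpression and 0.0716 for knockdown).

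Cell cycle genes that p53 represses through p21 were called in both directions beside the higher Cdkn1a. All 13 were tested, and 2 (15.4%) were called higher and 2 (15.4%) lower in each perturbed line. These shares were near those of all genes tested, 13.1% higher and 11.1% lower in the overexpression line and 18.0% and 17.4% in the knockdown line. The list had median log2 fold changes of -0.075 in the overexpression line and 0.021 in the knockdown line. Ccna2, the cyclin of DNA synthesis and entry to mitosis, rose by 0.24 ± 0.039 in the overexpression line (adjusted p = 0.000351, edgeR) and 0.17 ± 0.039 in the knockdown line (adjusted p = 0.00347). Cdc25c, a phosphatase that starts mitosis, had log2 fold changes of -0.32 ± 0.096 in the overexpression line (adjusted p = 0.0216, edgeR) and -0.38 ± 0.097 in the knockdown line (adjusted p = 0.00594). The kinesin Kif23 and the kinase Plk1 were the other called genes in the knockdown line, at 0.20 ± 0.055 (adjusted p = 0.00851, edgeR) and -0.15 ± 0.046 (adjusted p = 0.0193), with values of -0.075 ± 0.056 and -0.086 ± 0.046 in the overexpression line. The transcription factor Foxm1 and the cyclin Ccnb2 were those in the overexpression line, at 0.16 ± 0.047 (adjusted p = 0.0166, edgeR) and -0.21 ± 0.064 (adjusted p = 0.0232), with values of 0.021 ± 0.047 and -0.12 ± 0.064 in the knockdown line. With the length correction the calls of Kif23 and Plk1 in the knockdown line and of Cdc25c, Foxm1 and Ccnb2 in the overexpression line were lost (adjusted p = 0.0691 to 0.122). Single libraries also decided these calls, that of Kif23 excepted. That of Plk1 was lost without control replicate 1 or 2 or knockdown replicate 3 (adjusted p = 0.0577 to 0.0828), and that of Cdc25c without control replicate 2 or 3 or overexpression replicate 1 (0.0634 to 0.0847). That of Foxm1 was lost without control replicate 1 or 3 or overexpression replicate 3 (0.0535 to 0.0929), and that of Ccnb2 without control replicate 1 or 2 or overexpression replicate 2 or 3 (0.0558 to 0.147).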

How the data were processed

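Per the labels' protocols, total RNA of B16F10 cells was made into non-directional libraries (NEBNext Ultra II) and read as 150-base pairs; all 9 libraries were used. Per the file headers, the deposited tables give each transcript an estimated count, which need not be whole, a TPM value and an effective length in bases. Salmon 1.4.0, MultiQC 1.11, DESeq2 1.34.0 and build mm39 are named per the submitters' processing notes; the annotation release is not given in the sources used here. Because Salmon splits fragments over similar transcripts, genes with near copies and single transcripts are less certain than other gene totals.

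Transcripts were matched by identifier to GENCODE M21, and 137161 of 140789 (97.42%) matched. The others held 0.554% to 0.654% of a library's counts and were left out. Estimated counts were summed per gene and rounded. edgeR 4.0.16 (R 4.3.3) was run with filterByExpr, TMM and a quasi-likelihood model of the line over the 9 libraries, without other terms. The SE of a log2 fold change is its size divided by the square root of the F statistic. Counting floors cover counting error only. The libraries held 16.4 to 22.4 times 1000000 estimated counts, and 3 members did not pass filterByExpr. Within every line each pair of libraries differed by more than sampling noise (chi-square per degree of freedom of 4.77 to 10.98), so none was counted as a copy.

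Alternatives were other filters, scalings and tests (limma 3.58.1 and DESeq2 1.42.0), a replicate block, a correction for effective transcript length, a fit to 2 lines, and leaving out each library. The edgeR fit and its comparisons with control were tested on simulated gene counts. The comparison between the perturbed lines and the other steps were not. All members are named, and of the other lists up to 4 genes with the lowest adjusted p in each comparison with control. The members and lists were chosen with earlier results of these data known. Shared sequence is the percentage of a gene's 31-base words that another GENCODE M21 gene also holds. Upstream windows and their coordinates come from a RefSeq table on GRCm38.p6, not the build of the files. They served only for the printed sequences and the counts of half-sites and full sites.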

Additional observations from a re-analysis of the deposited data

How the results depend on the processing

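The 16 members called in the knockdown line gave 288 values over 18 alternatives, of which 280 kept their direction and call, and the 8 that did not were all of Rrm2b, which turned to log2 -0.13 with the transcript length correction. The 13 called in the overexpression line gave 234 values, of which 232 kept both, the exceptions being Aen and Eda2r with the length correction. The 9 called between the perturbed lines gave 162 values, of which 146 kept both, the exceptions being 12 of Aen, 3 of Bbc3 and 1 of Polk. Members not called gained a call in 6 of 285 values for overexpression (Apaf1, Bax, Bbc3 and Polk), 1 of 231 for knockdown (Ei24) and 10 of 356 between the lines (Bax, Ccng1 and Ei24). The length correction called 2794 genes in place of 4619 for knockdown, 1575 in place of 3172 for overexpression and 1423 in place of 2887 between the lines; the cause was not tested. With a share of estimated counts in place of TPM, 14 of 33 transcripts in place of 24 of 54 differed by over 10 percentage points. Leaving out each library called 13 to 14 members and 2440 to 3297 genes for overexpression, 15 to 16 members and 3885 to 4555 genes for knockdown, and 7 to 9 members and 2241 to 2867 genes between the lines. Same-numbered libraries did not deviate together (r = -0.093 to 0.127), so the numbers were not taken to pair samples. The replicate block called 13 members and 2957 genes for overexpression, 16 and 4423 for knockdown, and 8 and 2712 between the lines. Perp, Dram1 and Gdf15 have no value with a minimum of 1 CPM in 3 libraries. Their standard errors against the control were 0.561 to 0.730, and the 0 counts of Cdkn2a and Pmaip1 allow up to 0.184 CPM.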

Other observations

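Cdkn2a had 0 counts in all 9 libraries, and its 6 nearest protein-coding neighbours on each side in the gene order of GENCODE M21, chosen after its values were seen, are described here. Cdkn2b, which encodes another inhibitor of cyclin-dependent kinases, and Dmrta1 lie on one side of Cdkn2a and had 0 counts in all 9 libraries. Mtap, an enzyme of methionine salvage and the nearest gene on the other side, had 4942 to 5839 counts in the overexpression libraries, 4399.6 to 6297 counts in the knockdown libraries and 4172 to 5189.7 counts in the control libraries. Most of the genes farther out were at 0 as well. Beyond Mtap, Ifne, Ifna1, Ifna4, Ifna5 and Ifna6 had 0 counts in all 9 libraries, and beyond Dmrta1 so had Elavl2, Izumo3 and Gm12666. Zfp352, next to Dmrta1, had 5 counts in overexpression replicate 2 and 0 in the other libraries. Counts of RNA do not tell a gene that is missing from the genome from one that is not transcribed, and this was not tested.

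The p53 relatives Trp63 and Trp73 also had 0 counts in all 9 libraries.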
